A study of Homo sapiens with 32 samples.

Results

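Translational efficiency (TE) is the number of ribosome footprints on a gene's coding sequence relative to the amount of its mRNA, and its change between 5 h and 0 h of serum is described here for human RPE-1 cells, an immortalised line derived from retinal pigment epithelium. The change of a gene was its footprint change (5 h minus 0 h, log2) minus its RNA change (5 h minus 0 h, log2), tested as an assay-by-time interaction. It was measured for the 8736 of 19023 genes that passed a filter on low counts in both assays. The cells were wild type, had been kept without serum for 18 h, and were collected after 5 h of serum or at 0 h, that is at the end of starvation. The contrast rests on 16 of the 32 libraries of the series: 4 of ribosome-protected fragments (Ribo-seq) at 5 h, 4 of Ribo-seq at 0 h, 4 of total RNA (RNA-seq) at 5 h and 4 of RNA-seq at 0 h. The others are of the same cells at 10 h and 15 h of serum and enter the estimate of spread and 1 closing comparison. Each group's 4 libraries are biological replicates according to the submitters. A starved group collected at the 5 h clock time is not part of the design, so an effect of serum cannot be told apart from one of time.

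Cells with growth factors spend much of their protein synthesis on making ribosomes. The mRNAs of ribosomal proteins and of many translation factors begin with a C followed by a run of C and U letters, the 5′ terminal oligopyrimidine (5TOP) tract. In mammalian cells these mRNAs are known to be held off ribosomes when the kinase mTORC1 is inactive, with the RNA-binding protein LARP1 at their cap, and to return to ribosomes when growth factors and amino acids are supplied.

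The first bases of some genes whose TE changed most are shown because the annotated start of the RNA is where a 5TOP tract lies. Each window holds 10 bases before and 20 bases from the RefSeq start on the gene's own strand, in DNA letters of GRCh38.p14. Capitals mark an unbroken run of C and T of at least 5 letters that begins with C exactly at the start. The windows of EEF2 (chr19:3985444-3985473, minus strand), EEF1A1 (chr6:73521013-73521042, minus), RPS18 (chr6:33272065-33272094, plus), RPL13A (chr19:49487598-49487627, plus), RPL37A (chr2:216498834-216498863, plus), TPT1 (chr13:45341164-45341193, minus), SLC25A6 (chrX:1392094-1392123, minus), CDT1 (chr16:88803779-88803808, plus) and QARS1 (chr3:49104738-49104767, minus) hold such a run. These 9 genes were chosen among those that rose in TE:
EEF2: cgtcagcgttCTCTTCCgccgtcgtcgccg
EEF1A1: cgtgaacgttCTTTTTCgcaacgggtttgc
RPS18: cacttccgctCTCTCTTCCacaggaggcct
RPL13A: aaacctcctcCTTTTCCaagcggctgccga
RPL37A: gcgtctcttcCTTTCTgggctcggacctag
TPT1: ctgagtcggcCTTTTCCgcccgctcccccc
SLC25A6: gctgctccgtCCTTTCggtccaggcggcgg
CDT1: ccgcctcttcCTCCCTTCCTTCTTTCCTTg
QARS1: gcctaagtttCTTTTagtttccggtgtctc

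A run at the start also stood in genes that did not rise. ARMCX5 (chrX:102599505-102599534, plus) had a TE change of -0.88 ± 0.26 (adjusted p = 0.0339, but 0.079 with assay-specific variance), and SREBF2 (chr22:41833095-41833124, plus), a regulator of cholesterol synthesis, had 0.30 ± 0.32, not called (0.674):
ARMCX5: gctctagctcCTCCCactgccgttgtgggt
SREBF2: ccgccccgccCTTTCTgtgcggcgcccggg

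For contrast, the windows of ADAMTS6 (chr5:65481901-65481930, minus) and GAPDH (chr12:6535254-6535283, plus), which rose in TE, and of SAT1 (chrX:23783163-23783192, plus) and CIT (chr12:119877301-119877330, minus), which fell, hold no run at the annotated start. EEF1G (chr11:62573872-62573901, minus) rose among the most and has an annotated start on an A, with the letters ctt just before it:
ADAMTS6: gactgacgtcagtgtgctctgcctccgagg
GAPDH: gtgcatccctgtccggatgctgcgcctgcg
SAT1: atgttcaaatgcgcagctcttagtcgcggg
CIT: cgcccgcgccgttcctcgggttcaaacgcg
EEF1G: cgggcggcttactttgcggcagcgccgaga

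Total counts per library ran from 6454878 to 8093725 in Ribo-seq at 5 h, from 2851423 to 5235948 in Ribo-seq at 0 h, from 595851 to 1020631 in RNA-seq at 5 h and from 632023 to 882504 in RNA-seq at 0 h. Spread between replicates (the common biological coefficient of variation estimated by edgeR) was 0.0547 in Ribo-seq and 0.185 in RNA-seq, and RNA-seq was also the shallower assay. Levels are given as CPM (counts per 1000000 on library sizes scaled within each assay), and a TE change is relative to the other genes, since there is no spike-in. Of the markers of retinal pigment epithelium, RPE65 and TTR had 0 RNA counts at both times. Of the 4 epithelial markers, KRT8 had 665 to 985 CPM at 5 h and 512 to 666 CPM at 0 h. KRT18 had 802 to 1130 and 680 to 796 CPM, but CDH1 and EPCAM had 1 RNA count each over these libraries. The mesenchymal markers VIM, FN1 and CDH2 summed to 6620 to 8890 CPM at 5 h and 8320 to 11300 CPM at 0 h. VIM had 4660 to 5900 CPM at 5 h and 6390 to 7130 at 0 h. FN1 had 1530 to 2480 and 1540 to 3890, and CDH2 417 to 503 and 191 to 264. The summed RNA level of the 9 pigment epithelium markers was 20.8 to 36.4 CPM at 5 h and 71.9 to 80.7 CPM at 0 h. Markers of blood, neurons and endothelium summed to at most 30.6 CPM in any of these RNA-seq libraries.

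A TE change was called in a minority of genes, and with the main scaling more of the called genes rose than fell. With edgeR's quasi-likelihood test and a Benjamini-Hochberg adjusted p under 0.05 over all 8736 genes, 552 genes were called (6.32%), 394 of them higher at 5 h (4.51%) and 158 lower (1.81%). By comparison, the RNA level alone was called in 35.9% of the same genes and the footprint level alone in 77.8%. These shares differ in precision: median standard errors were 0.251 for TE, 0.247 for RNA and 0.0849 for footprints. They therefore do not measure how many genes changed, and 1664 genes had an unadjusted p under 0.05 for TE in the edgeR test. Among the called genes 227 rose and 43 fell by over 2-fold. The split between directions depended on how libraries were scaled: scaling to library totals shifted the median TE change of all genes by -0.18 (log2) and gave 280 higher and 687 lower, while TMM factors computed without 5TOP genes shifted it by 0.09 and gave 537 higher and 99 lower. Fitting each assay with its own variance and keeping genes called in both fits left 323 higher (3.7%) and 107 lower (1.22%).

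In the largest class of TE rises, footprints rose and RNA was not called. RNA-seq had the larger spread, so a gene with no call in RNA is not shown to have kept its RNA level. Of the 394 genes, 244 had more footprints with no call in RNA, 54 rose in RNA and rose further in footprints, and 47 fell in RNA while footprints rose. The remaining rises were of 26 genes that fell in RNA with no call in footprints, 22 that fell in both assays but less in footprints, and 1 called in TE alone. Of the 158 genes whose TE fell, 85 lost footprints with no call in RNA, 36 fell in RNA and further in footprints, 16 rose in RNA more than in footprints, 15 rose in RNA with no call in footprints, 5 rose in RNA while footprints fell, and 1 was called in TE alone. With the assay-specific variance these classes kept their order at the top, with 200 genes in the first class of rises and 55 in the first class of falls.

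**Figure D1:**
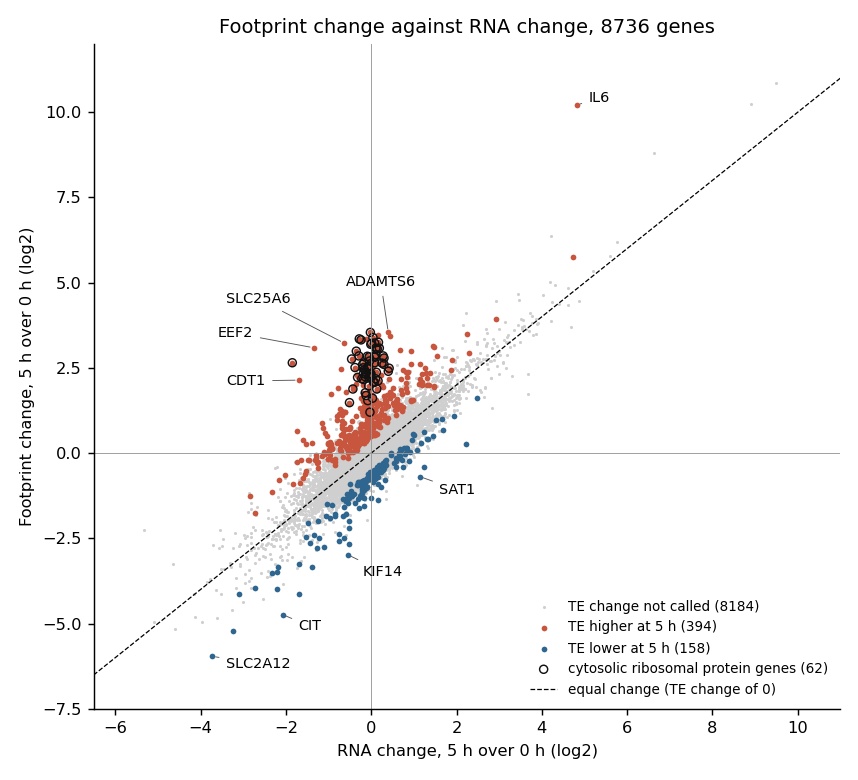
Each point is 1 of 8736 genes, with its RNA change (5 h over 0 h, log2, horizontal axis) and its footprint change (5 h over 0 h, log2, vertical axis); the dashed line marks equal changes. The 62 ribosomal protein genes (open circles) stand above the line, with footprint changes around a median of 2.5 at RNA changes around -0.04; the position of IL6 rests on 1 footprint count at 0 h and depends on the prior count of the fit.

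The cytosolic ribosomal proteins moved as a group. Of 79 genes on the list 62 passed the count filter in both assays and the other 17 were not tested. TE rose in all 62 (4.51% of all genes did), from 1.23 in FAU, which encodes a fusion of a ubiquitin-like protein and a small-subunit protein, to 4.46 in RPS16, with a median of 2.55 (log2; all genes tested had a median of -0.02). Under the 28 alternative settings between 58 and 62 were called higher, the lowest count being that of the strictest count filter, which tested fewer genes. For each of the 62 the footprint-to-RNA ratios of the 5 h and 0 h libraries did not overlap under any pairing of libraries, a separation upward that 3.72% of all genes showed. Their RNA did not move with their footprints: edgeR called 0 of 62 in RNA (19.5% of all genes were called higher and 16.4% lower), with 0 higher and 3 lower at an unadjusted p under 0.05, while all 62 were called higher in footprints (39.5% of all genes were). The median TE level (log2 of footprint CPM over RNA CPM) of the 62 genes was -1.48 at 5 h and -4.18 at 0 h, against -0.32 at 5 h and -0.28 at 0 h over all genes. These are medians of the list: RPS16 (3.04) and RPL19, a large-subunit protein (-0.07), lay above the all-gene median at 5 h. Levels between genes also carry how reads shared with pseudogenes, which are many for these genes, were assigned in each assay; that handling is not given in the sources used here.

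As a share of all counts, the 62 genes took 2.15, 2.07, 2.12 and 2.12% of footprints in the 5 h libraries and 0.503, 0.511, 0.492 and 0.462% in the 0 h libraries. The groups did not overlap, and the means were 2.12 ± 0.0332% at 5 h and 0.492 ± 0.0215% at 0 h (SD, n = 4). In RNA-seq the same genes took 6.31, 5.86, 5.94 and 5.88% at 5 h and 7.59, 6.03, 5.99 and 6.78% at 0 h, with overlapping groups and means of 6.0 ± 0.211% and 6.6 ± 0.755%.

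Single ribosomal protein genes show the pattern library by library. RPS18, a protein of the small subunit, had 89.2, 83.4, 89.5 and 84.0 footprint CPM at 5 h and 3.55, 6.58, 8.46 and 9.25 footprint CPM at 0 h. Its RNA level was 777, 574, 608 and 640 CPM at 5 h and 910, 570, 518 and 637 CPM at 0 h. Footprints were separated by about an order of magnitude while the RNA groups overlapped, and TE rose by 3.59 ± 0.23 (log2 ± SE, adjusted p = 2.64e-15). RPL13A, a large-subunit protein, had 84.5, 72.0, 73.6 and 83.6 footprint CPM at 5 h and 5.03, 8.7, 7.11 and 9.09 at 0 h, with 439 to 500 RNA CPM at 5 h and 520 to 634 RNA CPM at 0 h. Its TE rose by 3.63 ± 0.18 (adjusted p = 3.53e-18). RPL32, a large-subunit protein often used to study 5TOP control, had 488 to 533 footprint CPM at 5 h and 68.0 to 76.5 at 0 h, and its TE rose by 2.87 ± 0.21 (adjusted p = 1.2e-13). RPS2 and RPL37A rose by 3.55 ± 0.16 and 3.35 ± 0.16. RPS16 is less certain than the others. It had 378, 377, 384 and 390 footprint CPM at 5 h and 63.3, 64.7, 63.8 and 53.1 at 0 h, but its RNA level was 32.2, 94.6, 21.6 and 37.5 CPM at 5 h and 32.7, 117, 491 and 57.5 CPM at 0 h. Without the RNA-seq library of 0 h replicate 3, which holds the value of 491 CPM, its TE change was 3.19 with an adjusted p of 0.0712, and the value of 4.46 ± 1.04 therefore rests on that library.

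Of the 8 elongation factor genes tested 5 rose (4.51% of all genes did), with a median of 2.53 over the 8. EEF2, the factor that moves the ribosome along the mRNA, had 5420, 4970, 5450 and 5000 footprint CPM at 5 h and 614, 657, 660 and 513 footprint CPM at 0 h. Its RNA was 3250, 5130, 3190 and 3100 CPM at 5 h and 8420, 10200, 9900 and 8840 CPM at 0 h. Footprints were higher and RNA was lower at 5 h, with no overlap in either assay, so TE rose by 4.44 ± 0.24 (21.7-fold, adjusted p = 2.33e-16), more than either assay changed alone. EEF1A1, which brings aminoacyl-tRNA to the ribosome, had 150, 103, 125 and 117 footprint CPM at 5 h and 13.3, 10.2, 8.8 and 13.3 at 0 h, and rose in TE by 3.28 ± 0.24. The subunits of its nucleotide exchange complex EEF1G, EEF1D and EEF1B2 rose by 3.49 ± 0.14, 2.62 ± 0.15 and 2.44 ± 0.21. The other members did not pass the test: EIF5A, which carries the hypusine residue, had a TE change of -0.10 ± 0.20 (adjusted p = 0.849), the kinase EEF2K 0.38 ± 0.22 (0.363) and the tissue-restricted isoform EEF1A2 -0.11 ± 0.53 (0.95).

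The 16 tested members of a list of other mRNAs described as 5TOP all rose (4.51% of all genes did), with a median TE change of 1.92. The list was made with earlier results of these data known, so it is not independent of them. PABPC1, the cytoplasmic poly(A)-binding protein, had 429, 386, 443 and 402 footprint CPM at 5 h and 76.6, 79.4, 85.3 and 61.3 at 0 h, against 95 to 147 RNA CPM at 5 h and 117 to 244 at 0 h, and rose by 3.17 ± 0.25 (adjusted p = 3.77e-12). TPT1, the translationally controlled tumour protein, rose by 2.98 ± 0.16 and PABPC4, a paralog of PABPC1, by 2.70 ± 0.26. RACK1, a scaffold protein of the small subunit, rose by 2.43 ± 0.13 and VIM, the intermediate filament protein vimentin, by 2.39 ± 0.15. The annotated start of VIM held no run of C and T. The smallest rise was of PFDN5, a subunit of the prefoldin chaperone, with 0.83 ± 0.20 (adjusted p = 0.00499). HNRNPA1, a splicing regulator with several processed copies, rose by 1.64 ± 0.41 but had adjusted p values of 0.0603 and 0.0558 without the RNA-seq library of 0 h replicate 1 or 2.

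Initiation factors were divided. Of 39 tested, 15 rose (4.51% of all genes did), none fell and the median was 0.46. Of the risen genes 5 are also on the list of 5TOP mRNAs. At an unadjusted p under 0.05, 1 was lower with edgeR, and DESeq2 called 1 lower. The rises fell mainly on eIF3, the large complex that holds the small subunit ready: 9 of its 11 subunits tested rose, among them EIF3F (2.20 ± 0.12), EIF3L (2.04 ± 0.11), EIF3H (1.46 ± 0.14) and EIF3D (1.13 ± 0.12), while EIF3B had 0.10 ± 0.13 (adjusted p = 0.756) and EIF3J 0.52 ± 0.26 (0.263). EIF4B, a cofactor of the helicase eIF4A, rose by 1.97 ± 0.17, EIF2S3, the gamma subunit of eIF2, by 1.71 ± 0.13, and the helicase EIF4A1 by 1.02 ± 0.11. The cap-binding protein EIF4E (-0.11 ± 0.61, adjusted p = 0.954) and the scaffold EIF4G1 (0.43 ± 0.37, 0.58) did not pass the test. Library totals gave 12 rises among the 39 genes. The grouping of eIF3 subunits, and the choice of EIF4B, EIF2S3, EIF4A1, EIF4G1 and EIF4E by role, were made after values were seen.

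**Figure D2:**
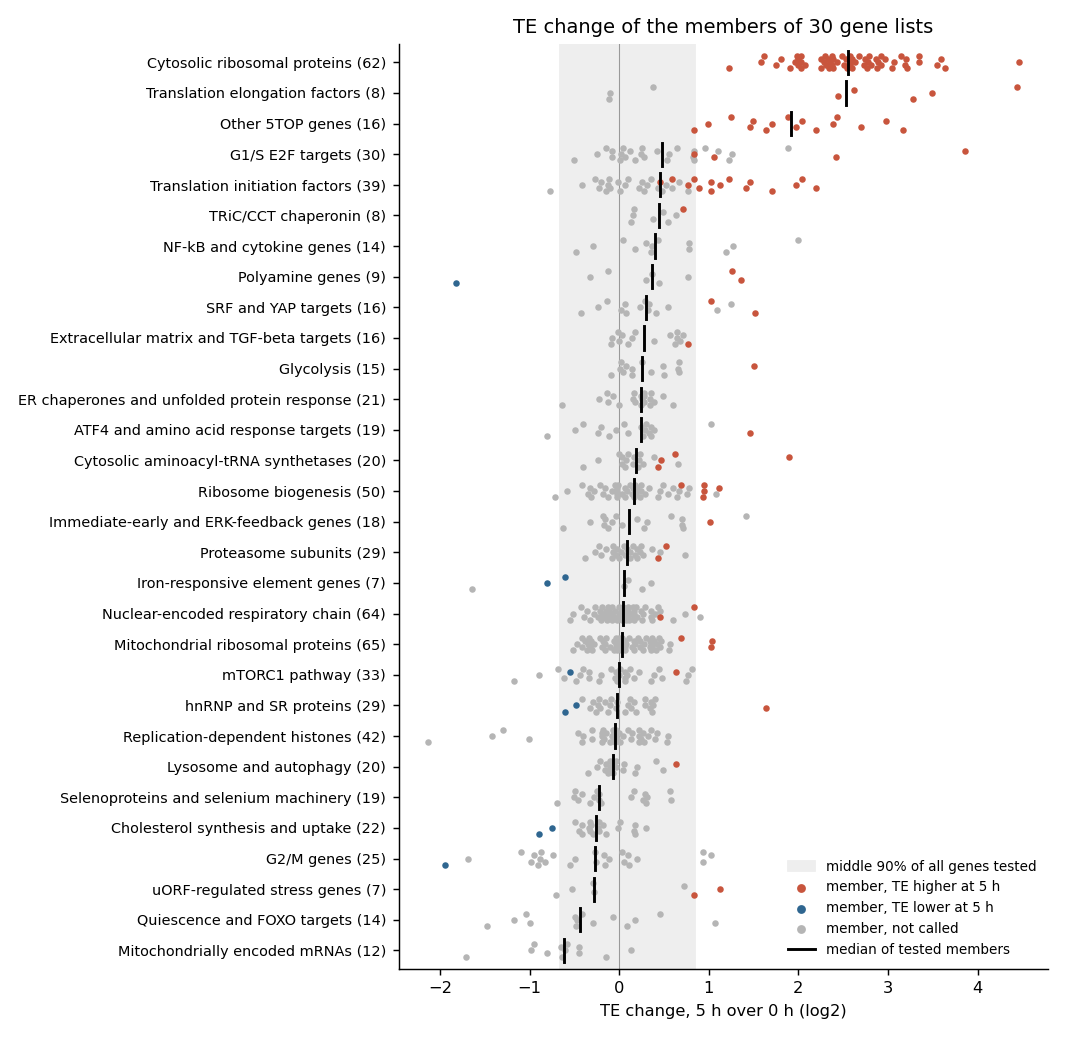
TE change (5 h over 0 h, log2, horizontal axis) of every tested member of 30 gene lists, with the number tested in brackets; a bar marks the median of each list, colour marks the call, and the grey band holds the middle 90% of all genes tested (-0.663 to 0.843). Ribosomal proteins and other 5TOP genes lie to the right of the band apart from PFDN5 at 0.83, as do 5 of the 8 elongation factors, while most members of the remaining lists lie within it; IL6 is not drawn.

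The start of the RNA was then compared over all genes that have a single annotated start in the RefSeq promoter table (5137 of 8736 tested genes, 40 of the 62 ribosomal protein genes). The letters searched were a C followed by at least 4 letters that are each C or T, on the sense strand. With the C allowed within 5 bases of the start, 1165 genes held such a run, their median TE change was 0.09 and 11.8% were called higher. The 3972 genes without it had a median of -0.05 and 2.42% were called higher. With the C exactly at the start the contrast was larger: the 301 genes with it had a median of 0.43 and 31.9% called higher, against -0.04 and 2.83% in the 4836 genes without it. Of the 40 ribosomal protein genes 33 held the run exactly at the start. The same letters on the opposite strand within 5 bases marked 978 genes, with a median of -0.05 and 1.94% called higher. Among all 35093 promoters in the table, 21.1% held the run within 5 bases of the start, 4.07% exactly at it and 18.6% on the opposite strand. These shares are descriptions and no test was made of them; an annotated start can lie a few bases from the one used in these cells, so a gene without the run is only a gene without these letters in this window.

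The contrast was also present with the lists of ribosomal proteins, elongation factors and other 5TOP genes left out. In that set 257 genes held the run exactly at the start, with a median TE change of 0.31 and 20.2% called higher. The 4826 others had -0.04 and 2.65%. Other translation genes stayed in the set, among them the initiation factor genes EIF3D, EIF3K and EIF3M, which rose and held the run. The 257 genes had a median RNA change of -0.18 and a median footprint change of 0.22, against 0.02 and 0.0 in the others. Lower RNA is thus part of this TE contrast, as well as more footprints. By length of the run, and over all genes with a single start, ribosomal protein genes included, the median was -0.04 in 4547 genes with no C at the start, 0.07 in 289 genes with a run of 1 to 4 letters, 0.34 in 182 genes with 5 to 7, 0.5 in 76 genes with 8 to 10 and 0.5 in 43 genes with 11 or more. Without ribosomal protein genes the medians were -0.04, 0.07, 0.31, 0.43 and 0.4 in the same order, so the bin of the longest runs was not the highest. With all genes 2.49, 8.3, 29.1, 36.8 and 34.9% were called higher. Of the 301 genes with a run of 5 or more exactly at the start, 96 were called higher and 2 lower, and the others were not called.

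**Figure D3:**
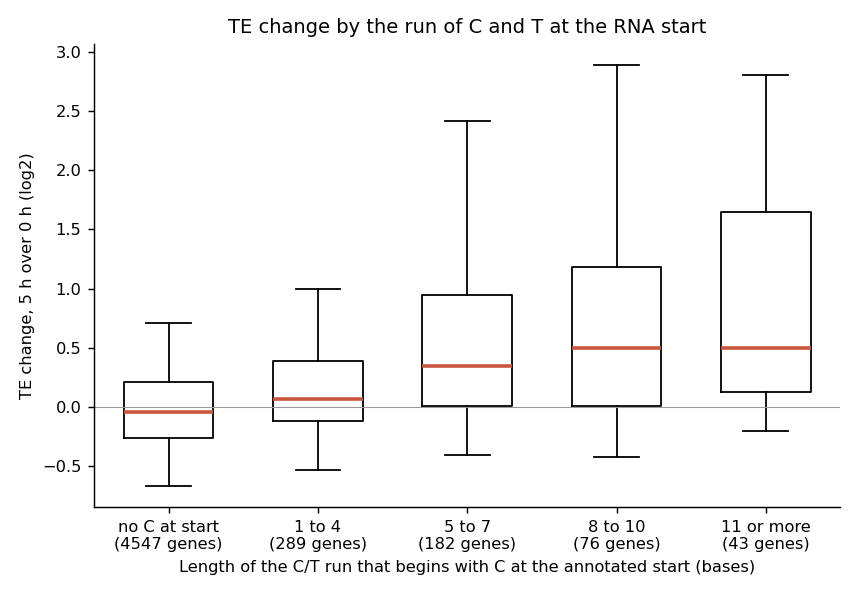
TE change (5 h over 0 h, log2, vertical axis) of 5137 genes by the length of the run of C and T that begins with C at the annotated start (horizontal axis, bases). The line is the median, the box spans the quartiles and the whiskers span from the 5th to the 95th percentile; medians are -0.04, 0.07, 0.34, 0.5 and 0.5 from left to right.

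Outside the 3 lists 311 genes rose, of which 180 had a single annotated start and 52 of those held the run exactly at it. SLC25A6, an ADP/ATP carrier of the mitochondrial inner membrane whose gene lies in the pseudoautosomal region, had 571, 590, 580 and 548 footprint CPM at 5 h and 62.1, 62.4, 67.2 and 52.1 at 0 h. Its RNA was 285, 427, 308 and 295 CPM at 5 h and 443, 586, 565 and 462 CPM at 0 h. The groups did not overlap in either assay and moved in opposite directions, and TE rose by 3.87 ± 0.20 (14.6-fold, adjusted p = 3.45e-18). CDT1, which loads the replicative helicase onto origins, had 22.3, 27.1, 19.6 and 21 footprint CPM at 5 h and 3.55, 6.16, 4.74 and 5.35 at 0 h. Its RNA was 5.09, 2.9, 5.68 and 6.25 CPM at 5 h and 17.5, 15.3, 22.1 and 10.1 CPM at 0 h, from 17 and 53 counts, and TE rose by 3.86 ± 0.47 (adjusted p = 7.72e-08). ORC1, the largest subunit of the origin recognition complex, rose by 2.42 ± 0.55 (0.003) and MCM2, a helicase subunit, by 1.06 ± 0.22 (0.00085), both with the run at the start.

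Further genes of this kind span several functions. QARS1, the glutaminyl-tRNA synthetase, had 272, 282, 273 and 265 footprint CPM at 5 h and 129, 138, 130 and 117 at 0 h, with 218 to 314 RNA CPM at 5 h and 373 to 514 RNA CPM at 0 h, and rose by 1.89 ± 0.18 (adjusted p = 2.11e-10). It was the largest rise among 20 cytosolic aminoacyl-tRNA synthetases. Of these 4 rose (4.51% of all genes did), 2 of them in both fits (3.7% of all genes). RPL22L1, a paralog of a ribosomal protein, rose by 2.08 ± 0.29 and NOP53, a factor of large-subunit assembly, by 2.35 ± 0.25. The nuclear import receptor IPO7 rose by 1.57 ± 0.20, TOMM20, a receptor of the mitochondrial outer membrane, by 1.55 ± 0.22, and CRTAP, a collagen-modifying protein, by 1.80 ± 0.15. These 5 genes, and MCM2 and ORC1 among the 4 G1/S genes that rose, were picked for their known roles after their values were seen.

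Some large rises had no run at the annotated start. ADAMTS6, a secreted metalloprotease, had a TE change of 3.14 ± 0.19 (adjusted p = 5e-16) with RNA higher by 0.40 and footprints by 3.54. GAPDH, the glycolytic enzyme, had 2350, 1990, 2200 and 2220 footprint CPM at 5 h and 1270, 1250, 1290 and 1190 at 0 h, with 3090, 3750, 3190 and 3160 RNA CPM at 5 h and 5080, 5490, 5490 and 5250 at 0 h. Neither assay's groups overlapped, and TE rose by 1.5 ± 0.12 (adjusted p = 1.81e-12). It was the only one of 15 glycolysis genes called, against 4.51% of all genes called higher. In that list 5 were higher at an unadjusted edgeR p under 0.05 and DESeq2 called 2. ACTG1, cytoplasmic gamma-actin, rose by 1.52 ± 0.25, while ACTB, beta-actin, had 0.29 ± 0.26 (adjusted p = 0.61). IL6, a cytokine, met the rule for the largest rises but had 1 footprint count in all 4 libraries at 0 h and 2306 at 5 h, a ratio of 1620 after scaling with a 95% interval of 291 to 64200 from counting error alone. Its RNA was 44.1 to 71.6 CPM at 5 h and 1.17 to 2.88 CPM at 0 h, from 196 and 6 counts, and no TE fold is given for it.

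**Figure D4:**
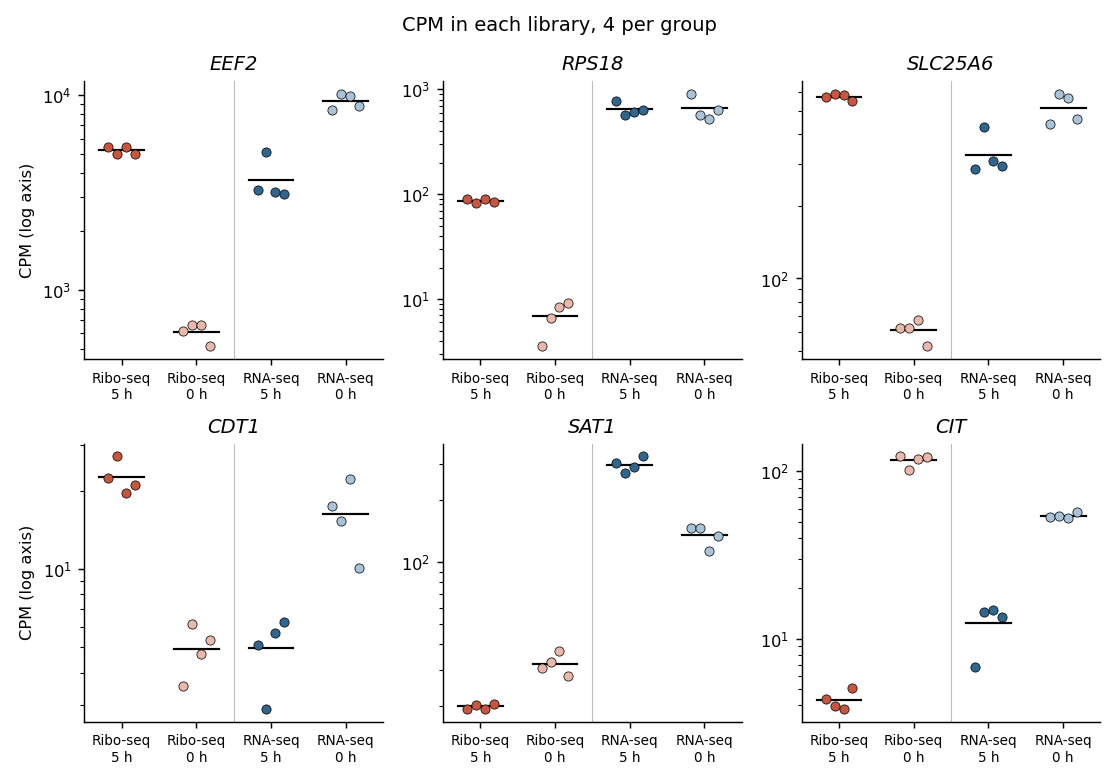
CPM (vertical log axis) of 6 genes in each library, with 4 libraries per group in the order Ribo-seq 5 h, Ribo-seq 0 h, RNA-seq 5 h and RNA-seq 0 h; bars are group means. EEF2, SLC25A6 and CDT1 have more footprints and less RNA at 5 h, RPS18 has more footprints at overlapping RNA levels, SAT1 has fewer footprints and more RNA, and CIT is lower in both assays.

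The 10 largest falls were in genes of varied function, and footprints fell in all 10. CIT, a kinase of the cytokinesis midbody, had 4.35, 3.97, 3.8 and 5.07 footprint CPM at 5 h and 123, 102, 119 and 122 at 0 h. Its RNA was 6.78, 14.5, 14.8 and 13.5 CPM at 5 h and 53.7, 54.1, 52.5 and 57.5 at 0 h. Both assays fell without overlap and footprints fell further, and TE fell by 2.67 on the log2 scale (SE 0.34, adjusted p = 1.6e-07). KIF14, a mitotic kinesin that acts with CIT at the midbody, had 2.77, 1.82, 2.82 and 3.17 footprint CPM at 5 h and 21, 18.3, 24.4 and 21.3 at 0 h, with 13.5 to 18.2 RNA CPM at 5 h and 20.7 to 25.5 at 0 h, and TE fell by 2.41 (SE 0.45, adjusted p = 0.0002). BUB1B, a kinase of the spindle checkpoint, fell by 1.94 (SE 0.34), although its footprint-to-RNA ratios overlapped between 5 h and 0 h under the most adverse pairing of libraries. Of all genes 1.16% were separated downward under any pairing. BUB1B was the only one of 25 G2/M genes called lower by the joint edgeR fit, against 1.81% of all genes. In that fit 7 of the 25 were lower and 2 higher at an unadjusted p under 0.05. DESeq2 called 5 lower, the fit with assay-specific variance 4 and library totals 6. RNA of these 25 genes was called lower for 23 (16.4% of all genes) and footprints for all 25 (38.4%). In these bulk samples fewer cells in G2/M and less RNA per cell cannot be told apart.

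Other large falls were of ZNF608, a zinc finger gene (-2.41 ± 0.38), the glucose transporter SLC2A12 (-2.20 ± 0.56), KANSL1L (-2.12 ± 0.29), the interferon-induced gene IFIT2 (-1.92 ± 0.50), KLHL24, an adaptor of a ubiquitin ligase (-1.74 ± 0.35), SYTL2, a vesicle trafficking protein (-1.54 ± 0.31), and PHF21A, a chromatin protein (-1.49 ± 0.43). RNA at 5 h rested on 19 counts for SLC2A12, 18 for IFIT2 and 24 for PHF21A. Leaving out RNA-seq 5 h replicate 3 gave -1.64 (adjusted p = 0.123) for IFIT2 and -1.03 (0.304) for PHF21A, and leaving out RNA-seq 5 h replicate 4 gave -2.0 (0.0797) for SLC2A12. PHF21A also lost its call without RNA-seq 0 h replicate 2 (adjusted p = 0.0509) or RNA-seq 5 h replicate 1 (0.0531).

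SAT1, which acetylates spermidine and spermine for breakdown or export, moved in opposite directions in the assays. It had 19.5, 20.4, 19.4 and 20.6 footprint CPM at 5 h and 30.7, 32.7, 37.1 and 28.2 at 0 h. Its RNA was 305, 271, 291 and 327 CPM at 5 h and 147, 147, 113 and 134 CPM at 0 h. Neither pair of groups overlapped, and TE fell by 1.82 (SE 0.14, adjusted p = 6.65e-13), a call that held in every alternative setting. Of the 9 polyamine genes tested, SAT1 was the one that fell (1.81% of all genes did) and 2 rose (4.51% of all genes). AMD1, which makes the aminopropyl donor for polyamine synthesis and has an inhibitory peptide in its leader, had 65.9, 67.7, 68.4 and 73.8 footprint CPM at 5 h and 6.8, 6.37, 7.28 and 4.38 at 0 h, and rose by 1.26 ± 0.32 (adjusted p = 0.00924; 1.07 with 0.0765 without RNA-seq 0 h replicate 2). Spermidine synthase SRM rose by 1.36 ± 0.42 (0.0414), but was not called with assay-specific variance (0.0511) or in 7 of the fits without 1 library. ODC1, the first enzyme of the pathway, rose in RNA by 2.48 ± 0.12 and in footprints by 2.78 ± 0.06, with a TE change of 0.30 ± 0.13 that was not called (0.175).

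In 4 more genes RNA rose while footprints and TE fell, among them AOPEP, an aminopeptidase (-1.16 ± 0.21, adjusted p = 0.000179). At the other end, TKT, the transketolase of the pentose phosphate pathway, fell in RNA by 1.48 and in footprints by 0.19, and its TE rose by 1.28 ± 0.18 (1.4e-06).

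Several classic serum-response genes changed in RNA and footprints together without a TE change that passed the test. Of 18 immediate-early and ERK-feedback genes TE rose in 1, IER3 (1.01 ± 0.24), near the 4.51% of all genes called higher. RNA rose in 11 of the 18 (19.5% of all genes) and footprints in 14 (39.5%). MYC had 242, 229, 237 and 252 footprint CPM at 5 h and 38.4, 30.4, 36.7 and 37.5 at 0 h, with 100 to 138 RNA CPM at 5 h and 12.9 to 23.5 RNA CPM at 0 h. Its TE change was 0.03 ± 0.23 (adjusted p = 0.975). For CCND1, cyclin D1, the footprint change was 2.58, the RNA change 2.47 and the TE change 0.10 ± 0.21 (0.855). TXNIP, an inhibitor of glucose uptake, had 33.6, 29, 26.6 and 38.5 footprint CPM at 5 h and 911, 1010, 947 and 1060 at 0 h, with an RNA change of -5.10 and a TE change of 0.18 ± 0.22 (0.719). The transferrin receptor gene TFRC (0.10 ± 0.19) and the mTORC1 inhibitor DDIT4 (-0.40 ± 0.32) were likewise not called. SERPINB2, an inhibitor of plasminogen activators, had a TE change of 1.27 ± 0.54, not called in the joint fit (adjusted p = 0.23) and called with assay-specific variance (0.00176), from 21 footprint and 9 RNA counts at 0 h.

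Groups known for other modes of translational control held some calls, on few genes (over all genes 4.51% were called higher and 1.81% lower). Of 7 tested stress genes whose mRNAs carry upstream open reading frames, PPP1R15B and PPP1R15A, which direct the phosphatase that reverses eIF2 phosphorylation, rose by 1.12 ± 0.28 and 0.83 ± 0.24, and each lost its call without some single libraries (PPP1R15B 1.0 with 0.0564 without RNA-seq 0 h replicate 2; PPP1R15A 0.68 to 0.78 with 0.0537 to 0.0934 without RNA-seq 0 h replicate 3, RNA-seq 5 h replicate 4 or Ribo-seq 0 h replicate 1 or 4, and 0.65 with 0.071 on library totals). The footprint-to-RNA ratios of PPP1R15A and PPP1R15B overlapped between 5 h and 0 h under the most adverse pairing of libraries. ATF4, the transcription factor of that response, had 2.64, 2.65, 3.52 and 3.8 footprint CPM at 5 h and 3.25, 1.91, 1.52 and 1.62 at 0 h, overlapping groups. Its TE change was 0.72 ± 0.31 (adjusted p = 0.182). The median TE change of the 7 stress genes was -0.28, with 3 positive. IBTK of this list had -0.53 ± 0.23, not called (adjusted p = 0.178). Of 7 genes with an iron-responsive element FTL, the ferritin light chain, fell by 0.81 (SE 0.20, 0.00582) and CDC42BPA by 0.61 (SE 0.18, 0.0293). CDC42BPA was not called with assay-specific variance (0.0556) or in 8 of the fits without 1 library. None of 19 selenoprotein genes was called by edgeR, 1 higher and 3 lower at an unadjusted p under 0.05, and DESeq2 called 0, while edgeR on library totals called 3 lower. GPX1 had 0.31 and GPX4 0.16. FTH1 did not pass the count filter and was not tested.

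In the pathway that acts on 5TOP mRNAs the number of calls was near the share over all genes (6.32% in either direction). Of 33 mTORC1 pathway genes LARP4 (0.63 ± 0.18, adjusted p = 0.0254) and PDCD4 (-0.55 ± 0.17, 0.0343) were called in the joint fit and neither with assay-specific variance. MTOR had a TE change of 0.44 ± 0.26 and LARP1 of 0.12 ± 0.38, neither called. Ribosome biogenesis genes differed from ribosomal protein genes in the assay that moved. Of 50 tested, 39 rose in RNA (19.5% of all genes did) and 47 in footprints (39.5%). TE rose in 5 (4.51% of all genes did), among them PES1 (1.11 ± 0.16) and the nucleolar methyltransferase fibrillarin, FBL (0.95 ± 0.17). The median TE change was 0.16.

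Of 65 mitochondrial ribosomal protein genes 3 rose, MRPL10 (1.04 ± 0.24), MRPS27 (1.03 ± 0.12) and DAP3 (0.69 ± 0.13), and the median TE change was 0.03. Over all genes TE was called higher in 4.51% and lower in 1.81%. Rises in this list and in the respiratory chain list were near that share. Footprints changed by -0.03 in MRPL10, 0.43 in MRPS27 and 1.26 in DAP3, and RNA by -1.09, -0.61 and 0.56. TMM without 5TOP genes gave 6 rises, and library totals gave 3 rises and 3 falls. Of 64 nuclear genes of the respiratory chain 2 rose, COX5A (0.83 ± 0.17) and NDUFB11 (0.46 ± 0.13), the second not with assay-specific variance. TMM without 5TOP genes gave 5 rises, and library totals 1 rise and 4 falls. The 12 mitochondrially encoded mRNAs all fell in footprints (38.4% of all genes did), 4 fell in RNA (16.4% of all genes), and their median TE change was -0.62. edgeR called 0 in TE, 4 lower at an unadjusted p under 0.05, DESeq2 called 2 lower, and library totals gave 3 lower and assay-specific variance 1. Replication-dependent histone genes fell in RNA (31 of 42, against 16.4% of all genes) and in footprints (37 of 42, against 38.4%). They had 0 TE calls by edgeR or DESeq2, 1 lower at an unadjusted p under 0.05 and 1 lower on library totals. ER chaperone genes rose in RNA (18 of 21, against 19.5% of all genes) and footprints (21 of 21, against 39.5%). They had 0 TE calls by edgeR, with 5 higher and 1 lower at an unadjusted p under 0.05. DESeq2, RLE factors or TMM without 5TOP genes gave 2 higher, and library totals gave 1 lower.

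The remaining lists are given beside the shares over all genes, 4.51% called higher and 1.81% lower. Of 30 G1/S genes 4 rose, the fourth being the helicase subunit MCM7 (0.84), and the median was 0.48. For MCM7 the RNA change was -1.01 and the footprint change -0.17. Of 22 genes of cholesterol synthesis and uptake SC5D and INSIG1 fell, by 0.90 and 0.75, and library totals gave 7 falls. TE rose in 1 of 19 ATF4 and amino acid response targets (SHMT2, a mitochondrial serine hydroxymethyltransferase, 1.46) and 1 of 14 NF-kB and cytokine genes (IL6). Of those 14, assay-specific variance called 3 higher and library totals 1 lower. TE also rose in 1 of 16 extracellular matrix genes (LAMB1, a laminin chain, 0.77). LAMB1 lost footprints (-0.88) and lost more RNA (-1.66). TE rose in 2 of 16 SRF and YAP targets (ACTG1 and the actin-binding TAGLN, 1.02) and 2 of 29 proteasome genes (PSMB5 and PSMB7). It also rose in 1 of 8 genes of the TRiC chaperonin (CCT4, 0.71) and 1 of 20 lysosome genes (NPC2, which carries cholesterol, 0.63). In the TRiC list all 8 TE changes were positive (median 0.44). The count called higher was 3 with RLE factors, 4 with TMM without 5TOP genes, 3 with DESeq2 and 4 with limma voom, with 5 at an unadjusted p under 0.05. Of 29 hnRNP and SR protein genes HNRNPA1 rose and HNRNPH2 and SRSF5 fell. SC5D, PSMB5 and SRSF5 were not called with assay-specific variance. They also lost their calls in 3, 13 and 15 of the fits without 1 library, in that order. Of 14 quiescence and FOXO targets edgeR called 0, with 1 higher and 4 lower at an unadjusted p under 0.05, DESeq2 called 1 higher and 2 lower, and edgeR on library totals called 3 lower.

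The TE changes of the same genes at 10 h and 15 h are given beside those at 5 h; all 3 use the same 0 h libraries, so they are not independent. Of all genes 6.4% were called higher and 1.33% lower at 10 h, and 8.25% higher and 3.09% lower at 15 h, with edgeR's quasi-likelihood test. The median of the ribosomal proteins was 2.55 at 5 h, 2.67 at 10 h and 2.73 at 15 h, with 62, 61 and 62 of the 62 called higher. EEF2 had 4.44 ± 0.24 at 5 h, 4.39 ± 0.24 at 10 h and 4.31 ± 0.24 at 15 h, and SLC25A6 had 3.87 ± 0.20, 3.98 ± 0.20 and 3.97 ± 0.20 in the same order. Among the falls, CIT had -2.67 ± 0.34 at 5 h, -0.30 ± 0.22 at 10 h and 0.38 ± 0.20 at 15 h, and KIF14 had -2.41 ± 0.45, 0.50 ± 0.34 and 0.37 ± 0.30, neither called at 10 h or 15 h. SAT1 had -1.82 ± 0.14, -1.44 ± 0.16 and -1.49 ± 0.22 and was called at each time. Whether a 5 h value differed from a later value was not tested.

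**Figure D5:**
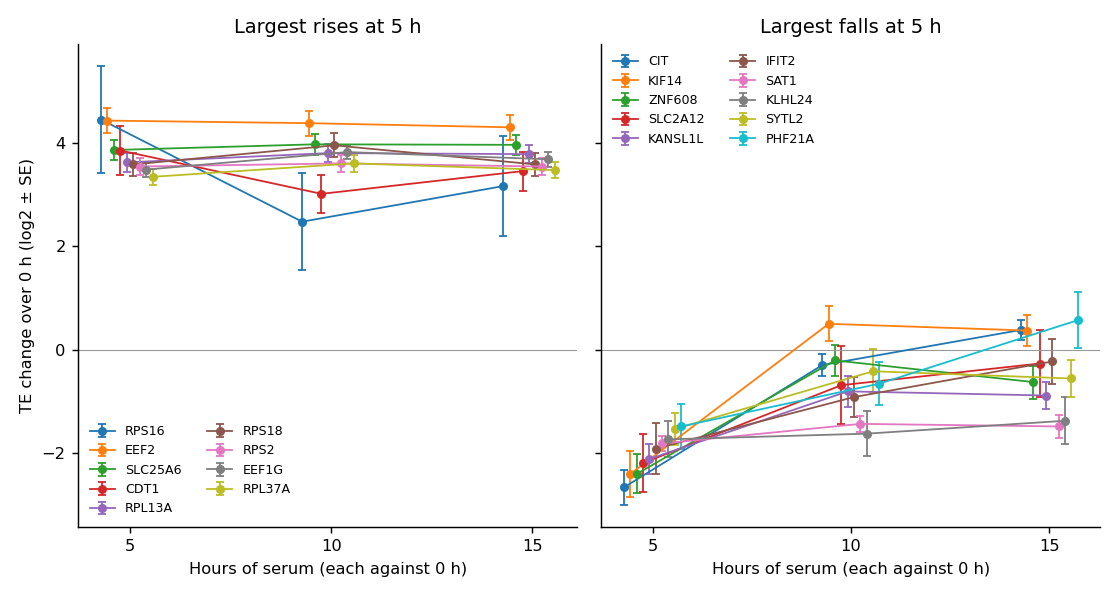
TE change over 0 h (log2, with SE bars) at 5, 10 and 15 h of serum for 9 of the 10 largest rises (left, IL6 left out) and the 10 largest falls (right), all against the same 0 h libraries. The rises lie between 2.48 and 4.46 at every time, while of the falls SAT1 and KLHL24 stay below -1 and the others lie nearer to 0 at 10 h and 15 h than at 5 h.

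The share of genes called grew with the RNA count behind them, being 1.97% in the lowest and 11.9% in the highest of 4 equal bins by RNA level, with median standard errors of 0.38 and 0.17. A gene of low RNA level that was not called is therefore not shown to be unchanged. The share called higher was 8.01% in the shortest and 3.78% in the longest of 10 equal bins by coding length, and 3.37% and 3.78% with the 3 lists of 5TOP translation genes left out.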

How the data were processed

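RNA-seq and Ribo-seq libraries of 4 replicates at 0, 5, 10 and 15 h were used. Per the submitters' processing notes and the labels' protocols, rRNA was depleted, both library types were made with a small-RNA kit, and the authors used STAR 2.5.4a, GRCh38 and featureCounts 1.5.1; they deposited whole-number counts per gene for each library. The strand setting, the handling of reads that match several genes and the annotation release are not given in the sources used here, so overlapping genes, genes with an antisense partner and genes with near-identical copies (ribosomal protein genes, EEF1A1, HNRNPA1, SLC25A6) are uncertain. The deposited lengths are multiples of 3 in 96.46% of genes and were read as coding lengths.

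Of 19023 genes 18905 were matched to symbols. Genes that passed edgeR's filterByExpr in each assay were kept, libraries were scaled by TMM within each assay, and 1 quasi-likelihood model (edgeR 4.0.16, R 4.3.3, robust) with a mean for each assay and time was fitted to all 32 libraries, which share the estimate of spread. Adjusted p-values are Benjamini-Hochberg over all 8736 genes, two-sided, and every adjusted p in the text is from this test unless another fit is named; the threshold was 0.05. SE is the log2 change divided by the root of the F statistic. Total counts per library limit the precision: RNA-seq holds 595851 to 1020631 counts. p-values measure the spread between these libraries, which the labels call biological replicates, and intervals cover counting error only. In a single simulation, 13 of 129 calls of the joint fit and 6 of 119 with assay-specific variance were of unchanged genes. Changes of 1.5-fold were recovered in 14.9% and 10.4%. Every gene of an assay had the same spread there, RNA was flat and few genes changed, unlike these data. The simulation therefore does not give the rate of false calls here. Calls of the joint fit alone are treated as less certain than calls in both fits. DESeq2 1.42.0 and limma 3.58.1 were alternatives; RefSeq starts came from a promoter table that held 7261 of the tested genes.

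Genes were named by rule: the 10 largest rises and 10 largest falls called in both fits with no overlap and a mean of at least 10 CPM in both assays, the 2 highest and 2 lowest of each list, 20 fixed genes and 3 genes of each class. Genes outside the rule were named for their role after values were seen, which also holds for the other elongation factors, PABPC4, RACK1, VIM, PDCD4, MTOR, LARP1, FBL, DAP3 and NDUFB11. The members and lists were chosen with earlier results of these data known. The text describes only some of the genes that the rule names.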

Additional observations from a re-analysis of the deposited data

Results flagged for a closer look

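In 11 of 152 groups of 4 libraries (7.24%; chance gives about 1 in 20) the highest or lowest library lay apart from the others by a gap above Dixon's critical value for 4 samples. In RNA-seq at 5 h, replicate 2 was high for EEF2 (5130 CPM, others 3100 to 3250), SLC25A6 (427 CPM, others 285 to 308), ACTB (2190 CPM, others 1180 to 1310) and GAPDH (3750 CPM, others 3090 to 3190). Without that library the TE changes were 4.65, 4.03, 0.54 and 1.57 in the same order, with no change of call. RNA-seq at 5 h, replicate 1 was low for CIT (6.78 CPM, others 13.5 to 14.8) and ZNF608 (8.48 CPM, others 13.6 to 14.6), and without it their TE changes were -2.81 and -2.52.

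In Ribo-seq at 5 h, TFRC had 512 CPM in replicate 2 (others 402 to 420) and CXCL8 had 287 CPM in replicate 1 (others 431 to 457). In Ribo-seq at 0 h, CIT had 102 CPM in replicate 2 (others 119 to 123), RPS16 had 53.1 CPM in replicate 4 (others 63.3 to 64.7), and IL6 had 0.169 CPM in replicate 3, its 1 count, with 0 in the others. Without these libraries the TE change was 0.01 for TFRC and 1.31 for CXCL8, neither called, -2.73 for CIT and 4.4 for RPS16, both called. What sets these libraries apart was not tested.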

How the results depend on the processing

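No called value changed sign in the 28 alternative settings: 51 of the 74 called genes among the 179 named were called in the same direction in every setting that tested them, and 23 missed the threshold in at least 1 (DESeq2 gave no adjusted p for RPS16). The 552 TE calls (394 higher, 158 lower) became 967 with library totals (687 lower) and 1028 with a replicate block within each assay (653 higher, 375 lower). Calls lower were 99 with TMM without 5TOP genes, 273 with DESeq2 and 99 with limma voom, and 87 with the replicate block by paired cultures; the cause was not tested. Same-numbered libraries correlated between -0.253 and 0.256 after removal of group means. Between 0 h and 5 h, replicates 1 to 4 gave 0.136, 0.0836, 0.0572 and 0.0331 in Ribo-seq and 0.18, 0.256, -0.253 and 0.123 in RNA-seq. The main fit did not pair libraries by number, and these values do not settle whether the numbers pair the samples. Without 1 library, calls ranged from 445 to 703, with 328 to 489 higher and 117 to 214 lower; ribosomal proteins called higher from 61 to 62 and lower from 0 to 0, with medians from 2.42 to 2.59; and other 5TOP genes called higher from 15 to 16 and lower from 0 to 0, with medians from 1.87 to 1.99. The ribosomal protein median was 2.37 with library totals. With assay-specific variance 3 classes shrank, from 85 to 55 genes (footprints lower, TE lower), from 22 to 14 (both assays lower, TE higher) and from 15 to 7 (RNA higher, TE lower). The median difference between genes with and without the start run, 0.14, was 0.47 with the run exactly at the start, 0.34 with at least 8 letters and 0.11 with genes of several starts included, the last chosen after seeing the data. Depth limits low-RNA genes most.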
